A study of Mus musculus with 8 samples.

Results

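Elastic fibres give connective tissue its recoil. They are built from a core of cross-linked elastin laid on a scaffold of microfibrils, whose backbone is fibrillin, and fibulins and microfibril-associated proteins join the parts and bring the lysyl oxidases that cross-link elastin. In skeletal muscle the connective tissue that holds these fibres is made largely by fibro/adipogenic progenitors (FAPs), mesenchymal cells that can become adipocytes or myofibroblasts. The mRNAs of 10 genes of this system were followed here, chosen by name but with earlier results of these data known. They were the elastin, fibrillin, fibulin and microfibril-associated protein genes *Eln*, *Fbn1*, *Fbn2*, *Fbln1*, *Fbln2*, *Fbln5*, *Efemp2*, *Mfap2*, *Mfap4* and *Mfap5*. They were 10 of the 31053 genes in the count files, of which 15873 had at least 1 count, as all 10 did, and 9 of them were among the 10181 genes abundant enough to be tested, *Mfap4* being the exception.

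FAPs were isolated from the hind limb muscles of 45-day-old *mdx* mice (C57BL/10ScSn-Dmdmdx/J), a strain that lacks dystrophin, and were sorted by the amount of the surface antigen SCA-1 into SCA1-High-FAPs and SCA1-Low-FAPs, the latter being the control of the series. Both cell states were then kept for 5 days in growth medium with serum, so that the values describe cultured *mdx* cells, and no wild type cells were part of the comparison. There were 4 samples of each cell state from 4 mice in all. Libraries read only the 3′ end of each mRNA, so that normalised read counts, given here as CPM (counts scaled to a common library size), do not grow with transcript length and may be compared between genes, apart from differences in how well each 3′ end is captured.

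The samples held between 1880561 and 3985656 counts on genes. The mRNA of SCA-1 itself, *Ly6a*, went against the sort labels after culture. It stood at 492, 789, 645 and 919 CPM in SCA1-High-FAPs and at 1100, 1080, 1156 and 1014 CPM in SCA1-Low-FAPs, so that the samples did not overlap. Its log2 fold change was -0.61 ± 0.17 (SE; edgeR adjusted p = 0.0341, and 0.0573 with the replicate number as a block), and the call held in 1 of 8 fits with a sample left out. The group names used here are therefore the labels of the sort. The groups also differed in markers of other cell types and of the cell cycle. The summed level of 5 adipocyte markers ranged over SCA1-High-FAPs from 2848 to 10106 CPM but over SCA1-Low-FAPs from 504 to 1396 CPM. That of 8 smooth muscle and pericyte markers, most of it *Acta2*, was 510.2 to 1566 CPM against 2088 to 3142 CPM, and that of 5 proliferation genes 475.5 to 662.3 CPM against 866.5 to 1309 CPM. Of these lists, 2 of 4 tested adipocyte markers were called higher in SCA1-High-FAPs (*Plin1* as well with the replicate number as a block). With DESeq2 the adjusted p was 0.0036 for *Plin1*, 0.00346 for *Fabp4* and 0.00156 for *Cidec*, which had too few counts for the main edgeR fit. *Fabp4* was not called with the replicate number as a block (edgeR adjusted p = 0.120). Called lower were 4 of 5 tested smooth muscle and pericyte markers and all 5 proliferation genes. *Notch3* was called higher (not with the replicate number as a block, adjusted p = 0.0955). Of all tested genes 7.68% were called. *Pdgfra*, which encodes the FAP marker CD140a, was present in all samples, at 176.8 to 291.4 CPM and 157.1 to 188.5 CPM. Of the 5 FAP markers 3 were called, *Dcn* higher in SCA1-High-FAPs with a log2 fold change of 2.08, and *Thy1* (-0.67) and *Ly6a* lower. The 5 markers of muscle stem cells and myoblasts summed to 0 to 5.18 CPM in SCA1-High-FAPs against 0 to 9.80 CPM, all of it *Itga7*, with *Pax7*, *Myod1*, *Myf5* and *Myog* at 0 in every sample. The 5 leucocyte markers summed to 4.24 to 10.9 CPM against 2.72 to 10.6 CPM, mostly *Csf1r* and *Cd68*, with *Adgre1* and *Itgam* at 0 throughout. The 5 endothelial markers summed to 1.47 to 7.10 CPM against 0.483 to 7.39 CPM, with *Emcn* at 0 throughout. These similar sums came from different genes. *Tek* was at 1.47 to 6.68 CPM in SCA1-High-FAPs against 0 to 2.38 CPM. *Pecam1* and *Cdh5* were at 0 in every SCA1-High-FAPs sample but reached 6.53 and 2.38 CPM in SCA1-Low-FAPs. Of the 4 tendon genes, *Tnmd* was at 15.03 to 46.1 CPM against 2.90 to 12.4 CPM (not called, edgeR adjusted p = 0.0530, and 0.0455 with the replicate number as a block). Its adjusted p was 0.0267 with DESeq2 and 0.00612 in edgeR with no filter on low counts. *Scx* was at 0 in every SCA1-High-FAPs sample and at 0.792 to 8.22 CPM in SCA1-Low-FAPs (DESeq2 adjusted p = 0.0108). *Fmod*, the most abundant, was at 142.2 to 295.7 CPM against 285.3 to 379.3 CPM (log2 fold change -0.53, edgeR adjusted p = 0.120, not called). *Mkx* was at 0.733 to 1.81 CPM against 0 to 4.12 CPM. The part of the adipocyte, smooth muscle and proliferation differences in the results on elastic fibre genes was not tested, and in bulk RNA fewer cells of a type and less RNA per cell cannot be told apart.

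The mRNAs of 1 fibrillin, 2 fibulins and both microfibril-associated glycoproteins were called higher in SCA1-High-FAPs, whereas that of elastin showed no detectable difference. Of the 9 tested genes, 5 were called higher in SCA1-High-FAPs, namely *Fbn2*, *Fbln1*, *Fbln5*, *Mfap2* and *Mfap5*, and none was called lower, a call being an adjusted p under 0.05 in edgeR with a log2 fold change beyond 0.5 in either direction. Among all 10181 tested genes 7.68% were called, 4.36% higher and 3.32% lower in SCA1-High-FAPs. The elastic fibre genes were chosen with earlier results of these data known, so these shares do not test the set. The log2 fold change was positive for 8 of the 9 genes, with a median of 0.58 against 0.00 over all tested genes. In 4 genes, *Fbn2*, *Fbln5*, *Mfap2* and *Mfap5*, every SCA1-High-FAPs sample lay above every SCA1-Low-FAPs sample, which held for 7.46% of tested genes, and in *Fbln2* every SCA1-High-FAPs sample lay below, which held for 6.67%. At an adjusted p under 0.01 in edgeR no elastic fibre gene was called, the adjusted p of the 5 calls lying between 0.0129 and 0.0441. None of the 5 was called without the first or without the fourth SCA1-Low-FAPs sample. *Fbln1* was called in only 2 of 8 fits with a sample left out. An unadjusted p under 0.05 in edgeR was found for 8 of the 9, and for 2164 of all 10181 tested genes.

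**Figure D1:**
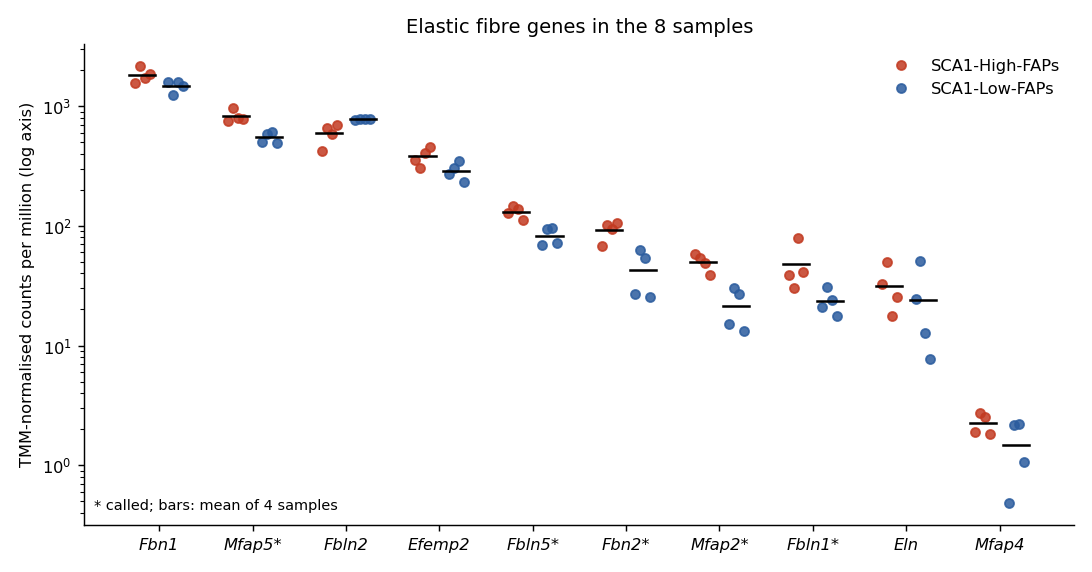
The level of each elastic fibre gene (TMM-normalised CPM, log axis) in the 4 SCA1-High-FAPs samples (red) and the 4 SCA1-Low-FAPs samples (blue); black bars are group means and asterisks mark the called genes. The groups are apart for *Mfap5*, *Fbln5*, *Fbn2* and *Mfap2*, with SCA1-High-FAPs above, and for *Fbln2*, with SCA1-High-FAPs below, and they overlap for the other 5 genes.

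The genes spanned a wide range of levels. Among SCA1-High-FAPs the order of mean levels was *Fbn1*, *Mfap5*, *Fbln2*, *Efemp2*, *Fbln5*, *Fbn2*, *Mfap2*, *Fbln1*, *Eln* and *Mfap4*, from 1826 ± 259 CPM for *Fbn1* to 2.23 ± 0.44 CPM for *Mfap4* (SD, n = 4). In that order the sample ranges of *Fbln2* and *Efemp2*, of *Mfap2* and *Fbln1*, and of *Fbln1* and *Eln* overlapped. In SCA1-Low-FAPs *Fbln2* took the second place and *Mfap5* the third, without overlap between them, and the ranges of the neighbours *Fbn2*, *Eln*, *Fbln1* and *Mfap2* overlapped. Together the 10 genes made up 0.352% to 0.452% of all counts in SCA1-High-FAPs, and the range for SCA1-Low-FAPs, 0.296% to 0.357%, overlapped it. Within that sum *Fbn1* took a similar part in both groups, 44.5% to 48.5% against 38.8% to 48.5%. The part of *Fbln2* was 12.4% to 17.0% in SCA1-High-FAPs but 21.9% to 25.0% in the SCA1-Low-FAPs samples, and that of *Mfap5* 18.8% to 22.1% against 15.3% to 18.6%, both without overlap.

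*Eln* (ENSMUSG00000029675, chr5:134702593-134747323 on GRCm38, minus strand) encodes tropoelastin, the soluble monomer of the elastic core. It was present at 32.5, 50.2, 17.5 and 25.3 CPM in SCA1-High-FAPs and at 24.7, 50.6, 12.7 and 7.66 CPM in SCA1-Low-FAPs. The highest and the lowest sample were both SCA1-Low-FAPs, and the groups overlapped over nearly the whole range. The log2 fold change was 0.44 ± 0.53 (SE; edgeR adjusted p = 0.709), an error larger than the value itself, so that a difference was not detectable at this depth and spread. With 29 to 111 counts per sample, *Eln* mRNA averaged 31.4 ± 13.9 CPM in SCA1-High-FAPs against 23.9 ± 19.2 CPM in SCA1-Low-FAPs (SD, n = 4), below both fibrillins in each group.

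The fibrillins polymerise into the backbone of the microfibril. *Fbn1* (ENSMUSG00000027204, chr2:125300594-125507993, minus strand), the main fibrillin of adult tissue, was the most abundant of the 10 genes in every sample. It was at 1550, 2166, 1731 and 1855 CPM in SCA1-High-FAPs and at 1595, 1231, 1577 and 1476 CPM in SCA1-Low-FAPs, so that the first SCA1-High-FAPs sample fell among the SCA1-Low-FAPs values. Its log2 fold change of 0.31 ± 0.15 (SE) was not called (edgeR adjusted p = 0.232).

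*Fbn2* (ENSMUSG00000024598, chromosome 18, minus strand), the fibrillin best known from developing tissue, was at 67.3, 100.8, 94.8 and 105.6 CPM in SCA1-High-FAPs and at 27.1, 63.2, 53.9 and 25.3 CPM in SCA1-Low-FAPs. All SCA1-High-FAPs samples were higher, though the first of them exceeded the second SCA1-Low-FAPs sample by little. The mRNA was 2.19-fold higher in SCA1-High-FAPs, a log2 fold change of 1.13 ± 0.27 (SE; edgeR adjusted p = 0.0180).

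Microfibril-associated glycoproteins bind along the fibrillin backbone. *Mfap2* (ENSMUSG00000060572, chr4:141010418-141015984, plus strand) encodes MAGP-1, the widely expressed member, and showed the largest fold change of the 9 tested genes. It was at 57.9, 53.3, 49.3 and 38.5 CPM in SCA1-High-FAPs and at 14.98, 29.9, 27.0 and 13.2 CPM in SCA1-Low-FAPs. The lowest SCA1-High-FAPs sample stood clear of the highest SCA1-Low-FAPs sample. The difference was 2.35-fold, a log2 fold change of 1.23 ± 0.29 (SE; edgeR adjusted p = 0.0129), on 31 to 123 counts per sample.

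*Mfap5* (ENSMUSG00000030116, chr6:122505845-122529290, plus strand) encodes MAGP-2, the second glycoprotein of the pair. It was at 754.2, 956.2, 791.6 and 773.4 CPM in SCA1-High-FAPs and at 501.7, 589.1, 606.8 and 491.3 CPM in SCA1-Low-FAPs. The groups did not overlap, and the spread within each was small relative to the level. *Mfap5* was 1.496-fold higher in SCA1-High-FAPs, a log2 fold change of 0.58 ± 0.14 (SE; edgeR adjusted p = 0.0167).

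*Mfap4* (ENSMUSG00000042436, chr11:61485431-61488900, plus strand), a fibrinogen-related protein that binds fibrillin and tropoelastin, was barely detected. It had 37 counts over the 8 samples, between 1 and 7 in each, and was not tested. The SCA1-High-FAPs samples had 4, 6, 6 and 5 counts, the SCA1-Low-FAPs samples 1, 4, 7 and 4. Its 3′ end also overlaps that of *Mapk7* on the opposite strand, which had 533 counts, and the strand setting of the counting is not given in the sources used here, so even these few counts are uncertain.

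The fibulins link elastin, microfibrils and other matrix proteins. *Fbln5* (ENSMUSG00000021186, chr12:101746565-101819055, minus strand) encodes fibulin-5, which binds elastin, integrins and lysyl oxidase-like enzymes and is needed for elastic fibres to form. It was at 127.1, 145.1, 139.0 and 112.2 CPM in SCA1-High-FAPs and at 69.6, 93.1, 95.2 and 71.3 CPM in SCA1-Low-FAPs. All SCA1-High-FAPs samples were higher than all SCA1-Low-FAPs samples, by 1.59-fold on the fitted scale (log2 fold change 0.67 ± 0.17, SE; edgeR adjusted p = 0.0215).

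*Fbln1* (ENSMUSG00000006369, chr15:85205949-85286535, plus strand), a fibulin found in the elastic core, in basement membranes and bound to fibronectin, was called in fewer of the fits with a sample left out than the other called genes. It was at 38.6, 30.3, 79.7 and 41.4 CPM in SCA1-High-FAPs and at 20.8, 31.0, 24.1 and 17.7 CPM in SCA1-Low-FAPs. The third SCA1-High-FAPs sample was far above the rest, and the second one fell just below the highest SCA1-Low-FAPs sample. The log2 fold change was 1.03 ± 0.30 (SE; edgeR adjusted p = 0.0441), and it was 0.67 (adjusted p = 0.182) without the third SCA1-High-FAPs sample. With the replicate number as a block the adjusted p was 0.0841, which left 4 elastic fibre genes called.

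*Fbln2* (ENSMUSG00000064080, chr6:91212455-91272540, plus strand), which binds fibrillin, fibronectin and versican, was the only tested gene of the 9 with a negative log2 fold change. It was at 424.7, 658.3, 584.1 and 698.2 CPM in SCA1-High-FAPs and at 763.7, 780.3, 772.3 and 777.5 CPM in SCA1-Low-FAPs. The SCA1-Low-FAPs samples were nearly identical to each other and all lay above the scattered SCA1-High-FAPs samples. The log2 fold change of -0.39 ± 0.15 (SE) was not called (unadjusted p = 0.0224, edgeR adjusted p = 0.145).

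*Efemp2* (ENSMUSG00000024909, chr19:5473954-5482517, plus strand) encodes fibulin-4, which brings lysyl oxidase to tropoelastin. It was at 357.3, 301.1, 402.9 and 454.7 CPM in SCA1-High-FAPs and at 270.7, 302.7, 349.5 and 230.7 CPM in SCA1-Low-FAPs. The groups overlapped, and the log2 fold change of 0.40 ± 0.16 (SE) was not called (edgeR adjusted p = 0.166). *Mus81*, on the opposite strand, shares its 3′ end but had only 118 counts in all, against 6722 for *Efemp2*.

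The 250 bases before the transcript start are shown for *Mfap2*, *Fbln5* and *Fbln1*, the called genes with an entry in the reference, so that the upstream regions of genes higher in the same samples can be set side by side. They come from RefSeq on GRCm38.p6, where 6 of the 10 genes had an entry, read 5′ to 3′ on the strand of the gene, with motif matches on either strand in capitals.
*Mfap2*, chr4:141010174-141010423, plus strand: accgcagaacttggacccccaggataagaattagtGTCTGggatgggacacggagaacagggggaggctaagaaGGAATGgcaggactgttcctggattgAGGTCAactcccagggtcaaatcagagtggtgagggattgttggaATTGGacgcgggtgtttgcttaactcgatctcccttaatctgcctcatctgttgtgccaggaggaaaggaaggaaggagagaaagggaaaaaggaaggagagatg
*Fbln5*, chr12:101819120-101819369, minus strand: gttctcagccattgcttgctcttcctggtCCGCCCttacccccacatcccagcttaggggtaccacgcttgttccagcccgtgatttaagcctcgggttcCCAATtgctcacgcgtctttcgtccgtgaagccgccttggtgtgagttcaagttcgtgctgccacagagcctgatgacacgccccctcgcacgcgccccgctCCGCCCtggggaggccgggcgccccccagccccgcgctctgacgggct
*Fbln1*, chr15:85205699-85205948, plus strand: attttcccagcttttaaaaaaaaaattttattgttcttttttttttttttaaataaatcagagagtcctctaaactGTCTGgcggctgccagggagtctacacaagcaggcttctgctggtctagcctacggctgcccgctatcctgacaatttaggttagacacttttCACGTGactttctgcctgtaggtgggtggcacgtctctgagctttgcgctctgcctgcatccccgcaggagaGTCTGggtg
The motifs searched were the TATA box (TATAAA), the CCAAT box (CCAAT), the GC box (GGGCGG), an E-box (CACGTG), a TEAD motif (GGAATG), a SMAD motif (GTCTG), a nuclear receptor motif (AGGTCA) and an AP-1 motif (TGACTCA). Of 32851 mouse windows of the same length they occurred in 12.4%, 33.8%, 32.7%, 6.02%, 12.6%, 42.2%, 14% and 4.46%, in that order.

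The 3 promoters had little in common by these letters. The *Mfap2* window held a SMAD, a TEAD, a nuclear receptor and a CCAAT match, at 215, 176, 150 and 105 bases before the start. The *Fbln5* window, with 65.2% G and C against a median of 52.4% over all windows, held GC boxes at 221 and 48 bases and a CCAAT box at 150 bases before the start. The *Fbln1* window, with 46.4% G and C, held an E-box at 81 bases and SMAD matches at 174 and 9 bases before the start. None of the 3 windows held a TATA box or an AP-1 match, and no motif was shared by all 3 of them. The matches in these windows did not overlap each other, and a match describes letters and not a bound site.

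Changes within a family were also read as ratios inside each sample, which do not depend on the scaling between libraries. For every *Fbn2* count there were 22.95, 21.4, 18.2 and 17.5 *Fbn1* counts in SCA1-High-FAPs, and 58.4, 19.4, 29.2 and 57.9 of them among SCA1-Low-FAPs. The SCA1-High-FAPs samples were alike, whereas the SCA1-Low-FAPs samples ranged from the same balance to a much stronger excess of *Fbn1*. The log2 ratio of *Fbn2* to *Fbn1* was -4.32 ± 0.19 and -5.22 ± 0.78 (SD, n = 4), a difference of 0.90 that did not pass (exact two-sided permutation p = 0.0857, 0.129 after adjustment over the 3 ratios; the smallest possible p is 0.0286).

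Counts of *Mfap5* per count of *Mfap2* were 12.98, 17.9, 16 and 20.0 in SCA1-High-FAPs, whereas they were 33.0, 19.5, 22.4 and 36.9 in SCA1-Low-FAPs. The ratio was lower in SCA1-High-FAPs apart from a slight overlap between the highest of them and the lowest SCA1-Low-FAPs sample. The log2 ratio was 4.04 ± 0.27 against 4.75 ± 0.44 (SD, n = 4), a difference of -0.71 (exact two-sided permutation p = 0.0571, adjusted 0.129). Hence both glycoproteins were called higher, and a larger fold change of *Mfap2* than of *Mfap5* was not shown by the test of the ratio itself.

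The log2 ratio of *Eln* to *Fbn1* was -5.95 ± 0.55 for SCA1-High-FAPs against -6.28 ± 1.29 for SCA1-Low-FAPs (SD, n = 4), with a difference of 0.33 (exact two-sided permutation p = 0.714, adjusted 0.714). In counts, *Fbn1* exceeded *Eln* by between 24.2-fold and 189.5-fold, and both extremes were SCA1-Low-FAPs samples. Leaving out the fourth SCA1-Low-FAPs sample turned the difference to -0.10.

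**Figure D2:**
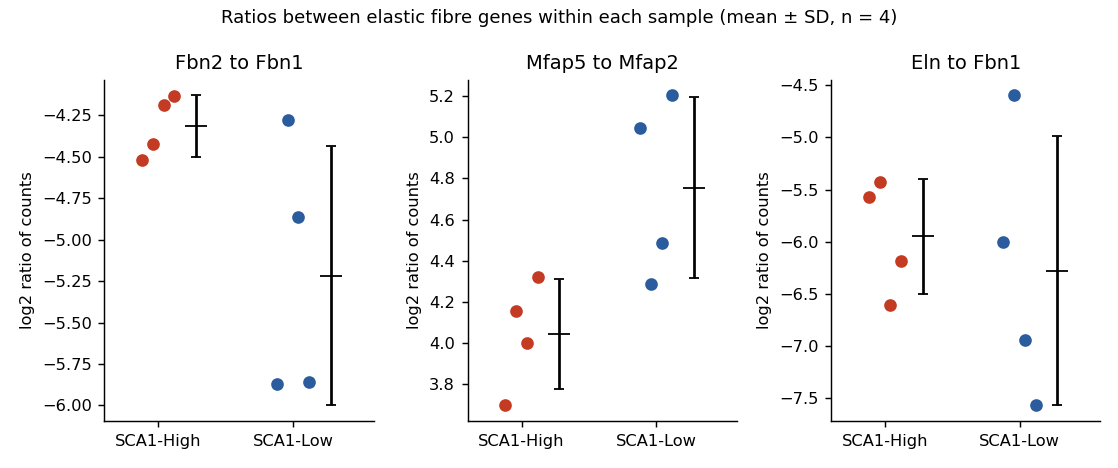
Log2 ratios of counts within each sample for *Fbn2* to *Fbn1*, *Mfap5* to *Mfap2* and *Eln* to *Fbn1*, with the 4 samples of each cell state as points and the mean ± SD beside them; the vertical axes differ between the panels and do not start at 0. The first ratio ran from -5.87 to -4.28 in SCA1-Low-FAPs but from -4.52 to -4.13 in SCA1-High-FAPs, and in every panel the groups overlap.

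The 5 calls rested on small groups and moved when a sample was left out, although no log2 fold change changed sign. *Fbn2* and *Mfap2* were called in 6 of 8 such fits, *Fbln5* and *Mfap5* in 5, and *Fbln1* in 2. None of the 5 genes was called without the first or without the fourth SCA1-Low-FAPs sample, where the highest adjusted p among *Fbn2*, *Fbln5*, *Mfap2* and *Mfap5* was 0.0881, and the count over all genes also fell, from 782 to 417 and 410. Without the second SCA1-High-FAPs sample 3 of the 5 were called, since *Fbln5* and *Mfap5* were lost. The log2 fold change of *Fbn2* ran from 0.95 to 1.37, that of *Mfap2* from 1.06 to 1.42, that of *Fbln5* from 0.59 to 0.76, that of *Mfap5* from 0.49 to 0.65 and that of *Fbln1* from 0.67 to 1.19.

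**Figure D3:**
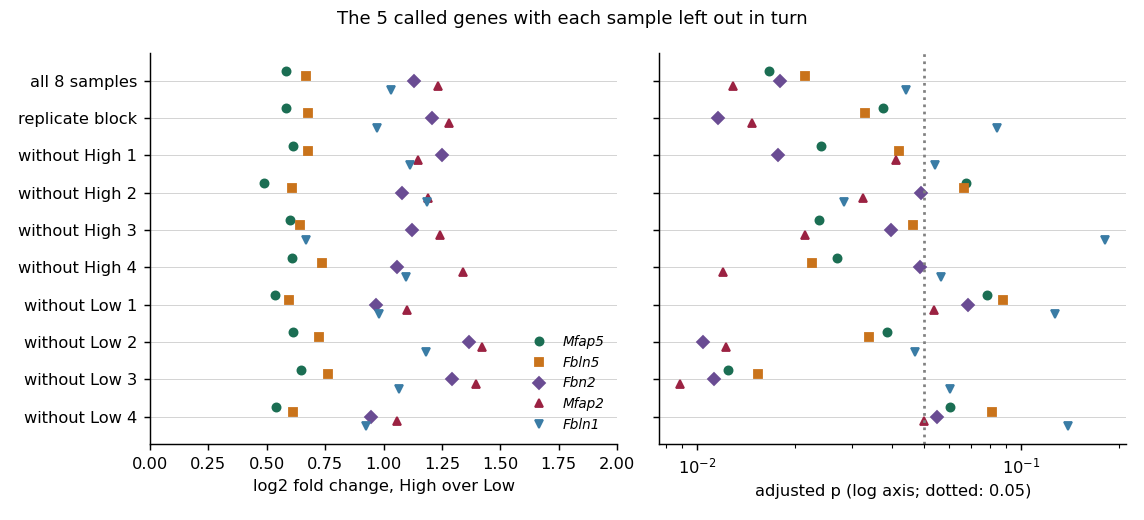
Log2 fold change (left) and edgeR adjusted p (right, log axis, dotted line at 0.05) of the 5 called genes with all 8 samples, with the replicate number as a block and with each sample left out in turn. All log2 fold changes lie above 0, and all 5 genes lie right of the dotted line, that is above 0.05, without the first or the fourth SCA1-Low-FAPs sample.

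The called genes followed a common order among the SCA1-Low-FAPs samples, a feature picked out after the values were seen. In all 5 of them the second and the third sample stood above the first and the fourth, an order present in 41.4% of the 444 genes called higher in SCA1-High-FAPs and in 20.8% of all tested genes. The same 2 samples had the highest summed adipocyte markers in their group, 1078 and 1396 CPM against 749.2 and 504 CPM, and the lowest summed proliferation genes, 1158 and 866.5 CPM against 1309 and 1209 CPM. The summed smooth muscle and pericyte markers did not follow this order, at 2937, 3142, 2088 and 2603 CPM. Among SCA1-High-FAPs the summed adipocyte markers were 10106, 4231, 5798 and 2848 CPM. The first of these samples had the lowest *Fbn2* (67.3 CPM) and *Mfap5* (754.2 CPM) of the group but the highest *Mfap2* (57.9 CPM). *Fbln1* and *Fbln5* lay between their extremes there. The part of these marker lists in the levels of *Fbn2*, *Fbln1*, *Fbln5*, *Mfap2* and *Mfap5* was not tested.

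Among the 9 tested genes themselves, *Fbln5* and *Mfap5* had the most similar profiles, with a root mean square distance of 0.11 between their mean-centred log2 CPM over the 8 samples. *Fbn2* and *Mfap2* were 0.32 apart. Over all tested genes outside the set, those nearest to *Fbn2* were *Smarca1* (0.11) and *Alpl* (0.18). Nearest genes have the smallest distances by choice, so a value under the median is no result in itself. The distance is not scaled to the spread of a gene. The median tested gene was 0.85 away from *Fbn2*, 0.84 from *Mfap2*, 0.74 from *Fbln1*, 0.55 from *Fbln5* and 0.51 from *Mfap5*. Nearest to *Mfap2* were the collagen VI gene *Col6a1* (0.13) and the semaphorin receptor gene *Plxna2* (0.17). *Fbln5* was nearest to *Tut4* (0.06) and *Kansl1* (0.09), *Mfap5* to *Med13l* (0.07) and *Setd1b* (0.08), and *Fbln1*, with larger distances, to *Agap1* (0.23) and *Abca9* (0.23).

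Genes that act with elastic fibres were described from a list of 41 genes, also chosen with earlier results of these data known. Of the 31 tested, 6 were called, 3 in each direction (19.4%, beside 7.68% of all tested genes). The median log2 fold change of the 31 was -0.06. Lysyl oxidases, which cross-link elastin and collagen, had, all 5 of them, negative log2 fold changes, but *Loxl3* alone was called lower. *Loxl3* was at 79.1, 57.9, 54.7 and 60.5 CPM in SCA1-High-FAPs and at 137.3, 112.7, 101.8 and 131.5 CPM in SCA1-Low-FAPs, without overlap, and fell by 0.94 ± 0.18 on the log2 scale (SE; edgeR adjusted p = 0.00348). *Lox*, the most abundant at 4005 ± 623 CPM in SCA1-High-FAPs against 4184 ± 210 CPM in the control state (SD, n = 4), had a log2 fold change of -0.06 ± 0.15 (SE), and those of *Loxl1* and *Loxl2* were -0.35 ± 0.16 and -0.13 ± 0.24.

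Of 12 tested microfibril-bound and assembly genes, 1 was called in each direction, beside 4.36% of all tested genes called higher and 3.32% lower. *Fn1*, whose fibronectin fibrils precede fibrillin assembly, was at 2660, 3016, 2683 and 3005 CPM in SCA1-High-FAPs and at 1550, 1987, 2254 and 1523 CPM in SCA1-Low-FAPs. Its log2 fold change was 0.64 ± 0.15 (SE; edgeR adjusted p = 0.0165), a call lost without the second SCA1-High-FAPs sample and without the first or the fourth SCA1-Low-FAPs sample. *Ltbp2*, a fibrillin-binding latent TGF-beta binding protein that does not itself hold TGF-beta, was lower, at 188.8, 384.3, 253 and 359.4 CPM against 501.2, 439.4, 537.3 and 610.6 CPM (log2 fold change -0.82 ± 0.20, adjusted p = 0.0166; not called without the fourth SCA1-Low-FAPs sample). The abundant proteoglycan genes *Bgn* and *Vcan* and the perlecan gene *Hspg2* were not called, with log2 fold changes of -0.03 ± 0.15, -0.30 ± 0.17 and -0.07 ± 0.17 (SE).

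Of 3 tested fibulin genes outside the 10, 2 were called higher in SCA1-High-FAPs, beside 4.36% of all tested genes. *Fbln7*, an adhesive fibulin, was at 37.7, 26.7, 48.0 and 31.5 CPM in SCA1-High-FAPs and at 17.4, 10.9, 12.1 and 8.18 CPM in SCA1-Low-FAPs, 2.99-fold higher (log2 fold change 1.58 ± 0.31, SE; edgeR adjusted p = 0.00389) and called with each sample left out. *Efemp1*, encoding fibulin-3, was at 147.8, 52.0, 171.2 and 133.9 CPM against 30.0, 23.4, 70.4 and 34.1 CPM, with a log2 fold change of 1.66 ± 0.42 (adjusted p = 0.0441). The groups overlapped, since the second SCA1-High-FAPs sample was lower than the third SCA1-Low-FAPs sample, and *Efemp1* was called in 2 of 8 fits with a sample left out, the second SCA1-High-FAPs and the third SCA1-Low-FAPs sample being the ones whose omission kept it. It was not called with no filter on low counts either (adjusted p = 0.133). The large fibulin-like gene *Hmcn1* was not called, with a log2 fold change of -0.87 ± 0.68.

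None of the 4 tested proteases that can degrade elastin or microfibrils was called. In edgeR 2 of them had an unadjusted p under 0.05, as had 2164 of all 10181 tested genes. The most abundant, *Mmp14*, *Mmp2* and *Ctsl*, had log2 fold changes of -0.41 ± 0.18, 0.56 ± 0.21 and 0.21 ± 0.20 (SE). *Mmp2* was called higher without the third SCA1-Low-FAPs sample (adjusted p = 0.0308) and with no filter on low counts (adjusted p = 0.0368). Among 7 tested cell surface receptor genes 1 was called lower, beside 3.32% of all tested genes. That was *Itga5*, the fibronectin receptor subunit, at 19.3, 18.1, 12.9 and 10.6 CPM in SCA1-High-FAPs against 54.1, 33.2, 22.5 and 49.6 CPM in SCA1-Low-FAPs. Its log2 fold change was -1.39 ± 0.32 (SE; edgeR adjusted p = 0.0116), a call lost without the first or the fourth SCA1-Low-FAPs sample. The integrin subunits *Itgb1* and *Itgav* had log2 fold changes of -0.12 ± 0.14 and -0.14 ± 0.17. *Ctsa*, encoding the protective protein of the elastin receptor complex, passed the adjusted p (0.0489) with a log2 fold change of 0.49 ± 0.15, short of the limit of 0.5.

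**Figure D4:**
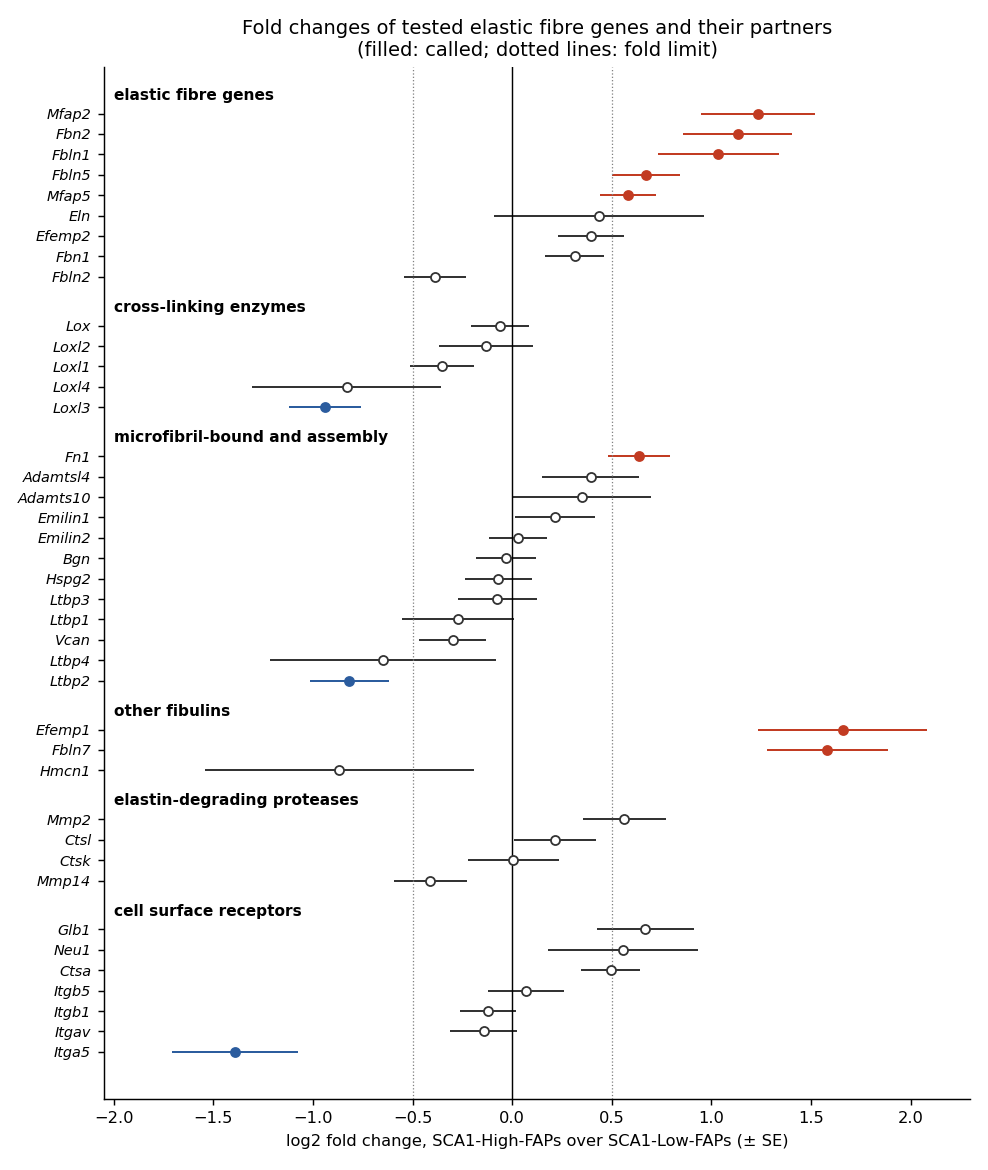
Log2 fold change of SCA1-High-FAPs over SCA1-Low-FAPs (points, with SE bars) for the 9 tested elastic fibre genes and the 31 tested partner genes, grouped by role; filled points are called and dotted lines mark the fold limit of 0.5. The called elastic fibre genes all lie right of 0, from *Mfap2* at 1.23 to *Mfap5* at 0.58, whereas *Loxl3*, *Ltbp2* and *Itga5* lie left of it.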

How the data were processed

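The authors made QuantSeq 3′ mRNA libraries, aligned the reads with STAR to mm10 and counted them per gene with HTSeq, as the labels and the methods of the study state; the deposited files hold raw counts per Ensembl gene, 1 file per sample. The reads that HTSeq assigned to no feature (13.3% to 16.4%) stayed out of library sizes. Gene names, positions and overlaps were taken from GENCODE annotation of GRCm38, the same assembly as mm10, in which 31011 of 31053 genes matched.

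Counts were filtered with filterByExpr, scaled by TMM and tested with edgeR 4.0.16 (robust quasi-likelihood; limma 3.58.1, R 4.3.3) on all 10181 genes that passed, with Benjamini-Hochberg adjustment over them; SCA1-Low-FAPs were the reference. A count of 3 corresponded to 0.753 to 1.60 CPM. Ratios of counts, with 0.5 added to each, were compared with exact permutation tests over 70 assignments (scipy 1.17.1). The edgeR and DESeq2 fits were tested on simulated counts, and the other steps were not.

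Described genes were all 10 elastic fibre genes, partner genes past the threshold, up to 3 abundant partners per role that did not pass, and the 2 nearest genes of each called gene. These members and lists were chosen with earlier results of these data known. The series text gives 4 mice for 8 samples, but no label says that a replicate number marks a mouse. For want of such a label the numbers were not used as pairs, and p-values take no account of shared mice. Deviations of same-numbered samples from their group means had correlations between -0.05 and 0.01, a check that cannot show which samples shared a mouse. The alternatives tried were DESeq2 1.42.0, RLE scaling, other count filters, a replicate block, other thresholds and leaving out each sample.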

Additional observations from a re-analysis of the deposited data

How the results depend on the processing

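The count of called elastic fibre genes was 5 with DESeq2, RLE factors, no filter, at least 10 counts in every sample and no fold limit, and 4 with the replicate block. It was 0 at an adjusted p under 0.01 in the main edgeR fit and ran from 0 to 5 when samples were left out in turn. That 0 did not hold in every alternative. With DESeq2 the adjusted p was 0.00339 for *Fbn2*, 0.00849 for *Fbln5*, 0.00207 for *Mfap2* and 0.00145 for *Mfap5*, but 0.0281 for *Fbln1*. With no filter in edgeR it was 0.000212 for *Fbn2*, 0.00861 for *Fbln1*, 0.000791 for *Mfap2* and 0.00964 for *Mfap5*, but 0.0152 for *Fbln5*. The count over all tested genes was 697 with the replicate block, 1065 with DESeq2, 307 at an adjusted p under 0.01 and 410 to 1017 with a sample left out. That of partner genes was 6 with the replicate block, 2 at an adjusted p under 0.01 and 2 to 7 with a sample left out. The replicate block lost *Fbln1* among the calls on elastic fibre genes and partners, and *Ly6a* and *Notch3* among those on markers, where it gained *Plin1* and *Tnmd*. Of 117 fold changes of the elastic fibre genes over the alternatives, 17 lost their call, none changed sign and none gained a call. The difference of the *Eln* to *Fbn1* log2 ratio ran from -0.10 to 0.89 with a sample left out, reversed without the fourth SCA1-Low-FAPs sample. With the replicate block, exact sign-flip permutation tests gave p = 0.25 for *Fbn2* to *Fbn1*, 0.125 for *Mfap5* to *Mfap2*, the smallest it allows, and 0.625 for *Eln* to *Fbn1*. The cause of these losses was not tested. *Mfap4*, with 37 counts in all, was too shallow to test.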
